A study of Mus musculus with 72 samples.

Results

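The data described here are 8 chromatin-associated RNA-seq (ChrRNA-seq) libraries of SmcHD1 knockout (KO) clone A3, out of 72 libraries in the series. They were chosen by their labels alone: 2 replicates at each of days 2, 3, 5 and 7 of simultaneous Xist induction and differentiation from mouse embryonic stem cells (mESCs) towards neural precursor cells (NPCs). Days 5 and 7 (4 libraries) were compared with days 2 and 3 (4 libraries). A3 is a single clone of the female hybrid line iXist-ChrX_Dom, whose X chromosomes come from strain 129S (Mus musculus domesticus, Dom) and from Mus musculus castaneus (Cast). In every group the endogenous Xist promoter on the 129S allele was replaced by a doxycycline-inducible TetOn promoter, so the Dom X becomes the inactive X (Xi) and the Cast X stays active (Xa). Cells were freed of feeder fibroblasts, plated in N2B27 medium without serum or LIF and kept in doxycycline at 1 μg/mL throughout. Uninduced A3 mESCs (2 libraries) served as day 0. The 8 libraries of SmcHD1-proficient (WT) iXist-ChrX_Dom cells of the same days were the comparison group, and no uninduced WT library was used. The study describes days 0 to 7 as 2 replicate time courses, but neither it nor the labels say that libraries of different days with the same replicate number share a course.

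ChrRNA-seq reads RNA that is still attached to chromatin, most of it freshly transcribed, and therefore follows transcription more closely than total RNA does. Xist, a long noncoding RNA, coats the chromosome it is made from and silences its genes in cis through SPEN and the Polycomb complexes, among others. SmcHD1 is a noncanonical SMC protein that joins the Xi late and is best known for keeping subsets of its genes silent. The allelic ratio used below is Xi/(Xi+Xa), the share of a gene's allele-assigned fragments that came from the Xi. It is near 0.5 where both alleles are transcribed alike and falls towards 0 as the Xi copy is silenced.

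Depth was 22441818 to 31152645 fragments per library at days 2 to 7 and 9344054 and 17975514 in the uninduced cells. Over the 246 X-linked genes of the authors' list for this line, a gene had a median of 190.5 to 281.5 allele-assigned fragments per library at days 2 to 7. Smchd1 RNA was present in every A3 library, at 368 and 389 RPM in uninduced cells and between 467 and 594 RPM at days 2 to 7 (a gene's fragments divided by all gene-assigned fragments of the library and scaled to a common total), and in WT libraries between 516 and 628 RPM. The KO was made with CRISPR guides inside the gene, so the RNA level does not check it. Xist fragments that could be assigned to an allele came from the Dom allele for 99.9% of fragments in each induced A3 library.

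Replicate 2 of day 7 stood apart from the other A3 libraries in total counts. Between the replicates of day 7, 377 of 10427 genes with a mean of at least 5 RPM differed by over 4-fold, against 17 genes at day 2, 7 at day 3 and 33 at day 5. The 377 genes were split evenly, with 191 higher in replicate 2 and 186 higher in replicate 1. Its median allelic ratio was close to that of replicate 1 (0.0302 and 0.0335). Results that rest on this library are given with and without it.

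Xist RNA kept rising in A3 over the week. The level was 6802 and 6961 RPM at day 2, 12040 and 11237 RPM at day 3, 16247 and 12292 RPM at day 5, and 18322 and 16194 RPM at day 7, against 152 and 131 RPM in uninduced cells. Every library of days 5 and 7 was above every library of days 2 and 3. The difference of the means was 0.80 on the log2 RPM scale, or 1.74-fold (exact two-sided permutation test, p = 0.0286, the smallest that 4 libraries against 4 allow). WT libraries of the same days held 5048 to 16636 RPM.

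Silencing proceeded in A3 without SmcHD1, and most of it had taken place before day 5. The median allelic ratio over the 246 genes was 0.514 and 0.512 in the uninduced libraries, 0.213 and 0.210 at day 2, 0.122 and 0.0974 at day 3, 0.0571 and 0.0375 at day 5, and 0.0335 and 0.0302 at day 7. The periods did not overlap, and neither did the uninduced and day 2 libraries. The mean over libraries was 0.161 ± 0.060 (SD, n = 4) at days 2 and 3 and 0.0396 ± 0.0121 (SD, n = 4) at days 5 and 7 (difference -0.121, exact two-sided permutation test, p = 0.0286). Here and below, an SD over the 4 libraries of a period includes the change between its days, not only the spread between replicates.

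The fall was carried by fragments of the Xi. Summed over the 246 genes, Xi fragments were 5976 and 6181 RPM in uninduced cells, 1669 and 1867 RPM at day 2, 1008 and 931 RPM at day 3, 478 and 498 RPM at day 5, and 380 and 405 RPM at day 7. The libraries of the periods did not overlap, and the late mean was 0.322 of the early mean (exact two-sided permutation test, p = 0.0286). Summed Xa fragments lay between 5694 and 6957 RPM in every A3 library, with overlapping periods (difference 274 RPM, exact two-sided permutation test, p = 0.514). At day 7, 33 and 36 of the 246 genes had no Xi fragment in replicates 1 and 2, which at this depth leaves low Xi transcription undetectable, whereas 44 and 46 genes were still above an allelic ratio of 0.1.

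**Figure D1:**
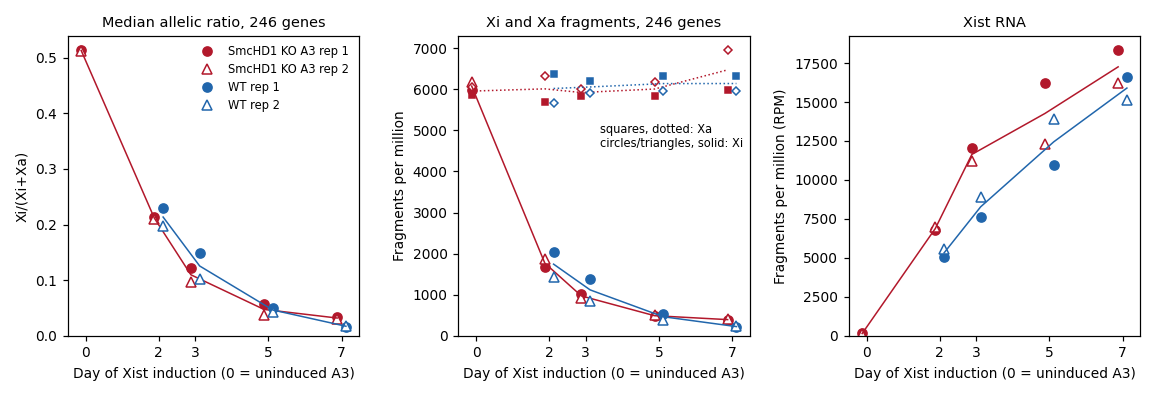
Values per library against the day of Xist induction (0, uninduced A3 cells), with circles and triangles for replicates 1 and 2, red for A3 and blue for WT, and lines through the day means; the left panel plots the median allelic ratio over 246 X-linked genes, the middle panel the summed Xi (circles and triangles) and Xa (squares and diamonds) RPM over the same genes, and the right panel Xist RPM. A3 Xi fragments fall from 5976 and 6181 RPM to 380 and 405 RPM while Xa fragments stay between 5694 and 6957 RPM.

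At the level of single genes, the allelic ratio was lower at days 5 and 7 in 217 of 246 genes and higher in 0 (limma with Benjamini-Hochberg adjustment at 0.05, 88.2% of the genes tested). In 173 of the 246 genes (70.3%), all 4 late libraries lay below all 4 early ones. Day by day, the ratio was lower in 168 genes and higher in 1 at day 3 against day 2, and lower in 88 genes at day 5 against day 3. Between days 5 and 7 limma called 0 genes, with 2 genes at an unadjusted p under 0.05 and a median change of -0.00913. That step also had 0 genes called in WT cells, at a median change of -0.0246, so 0 calls do not show a plateau. In WT cells days 5 and 7 against days 2 and 3 called 218 genes, all lower.

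The silencing half-time of each gene, the time in which an exponential decay towards 0 fitted to its ratios of days 0 to 7 falls by 50%, had a median of 1.57 days in A3 (quartiles 1.10 and 2.19 days, 246 genes). Libraries with the same replicate number were also joined into replicate courses 1 and 2, although the labels do not say that they share a course. Fitted separately, these gave medians of 1.63 and 1.48 days. Across 245 genes (without the gene at the limit of 100 days), the half-times of these courses had a Spearman correlation of 0.892, as a description over genes that share the same libraries. Genes with half-times under 1 day numbered 55, and those over 3 days numbered 30.

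Among genes with at least 50 allelic fragments in every A3 library of days 2 to 7, the shortest half-times belonged to Nhsl2 (0.494 days), Stard8 (0.510 days), Dmd (0.626 days), Smarca1 (0.644 days), Pcyt1b (0.648 days), Mtap7d3 (0.649 days), Gpc3 (0.660 days) and Gabra3 (0.662 days). These genes lay from 1.37 to 55.6 Mb from Xist. Gpc3, which encodes the cell-surface proteoglycan glypican 3 (chrX:52272426-52613974, minus strand, mm10), had a ratio of 0.504 and 0.498 in uninduced cells, 0.0634 and 0.0571 at day 2, 0.0277 and 0.0175 at day 3, 0.00642 and 0.00365 at day 5, and 0.00471 and 0.0116 at day 7. Most of its fall therefore preceded the first induced library, and the late libraries lay below all early ones (0.0066 ± 0.0035 against 0.0414 ± 0.0223, SD, n = 4 each, limma adjusted p = 0.000516). Its WT half-time was 0.615 days.

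Dmd, the very long gene of dystrophin, behaved alike. Its ratio was 0.445 and 0.433 in uninduced cells, 0.0474 and 0.0411 at day 2, 0.0213 and 0.0203 at day 3, 0.0114 and 0.0161 at day 5, and 0.00677 and 0.0194 at day 7 (limma adjusted p = 0.0079), with every late library below the early ones. Pcyt1b, an enzyme of phosphatidylcholine synthesis, went from 0.487 and 0.510 to 0.0588 and 0.0582 at day 2, 0.0233 and 0.0140 at day 3, 0.00701 and 0.0129 at day 5, and 0.00769 and 0.00673 at day 7 (limma adjusted p = 0.000694), again without overlap.

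Further familiar X-linked loci had half-times of 0.916 to 1.75 days. Msn, which encodes the membrane-cytoskeleton linker moesin, halved in 0.916 days, with ratios of 0.116 and 0.122 at day 2 and 0.00609 and 0.00518 at day 7. Hprt, a purine salvage enzyme, had a half-time of 1.43 days and fell from 0.248 and 0.218 at day 2 to 0.0202 and 0.00794 at day 7. Fmr1, an RNA-binding protein gene, had a half-time of 1.75 days and ratios of 0.255 and 0.234 at day 2 and 0.0432 and 0.0252 at day 7. Each of the 3 genes had late libraries that lay entirely below the early ones (limma adjusted p = 0.000105, 0.000173 and 0.000145).

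With the same minimum of 50 allelic fragments, the longest half-times belonged to Slc25a5 (at the limit of 100 days), Dynlt3 (18.7 days), Rpl10 (7.41 days), Kdm6a (5.80 days), Taf1 (5.70 days), Suv39h1 (4.74 days), Nono (4.69 days) and Eif2s3x (4.63 days). Most of these long half-times depended on the fit. When the final ratio was left free instead of fixed at 0, Dynlt3 had 3.96 days, Rpl10 1.19 days, Taf1 2.60 days, Nono 0.743 days and Eif2s3x 1.56 days, whereas Kdm6a and Suv39h1 stayed at 5.81 and 4.74 days, and Slc25a5 could not be fitted. Without the uninduced libraries Rpl10 had 15.8 days, Nono 26.6 days and Eif2s3x 7.40 days, and the libraries of replicate 1 alone gave 44.5 days for Dynlt3. Slc25a5, an ADP/ATP carrier of the mitochondrial membrane, showed no fall at all. Its ratio was 0.373 and 0.405 in uninduced cells and between 0.408 and 0.498 in the 8 induced libraries, with overlapping periods (limma adjusted p = 0.253), and its WT half-time was likewise at the limit. Dynlt3, a dynein light chain gene, already had ratios of 0.908 and 0.910 before induction and of 0.822 and 0.596 at day 7, so its fitted course started far from 0.5. Both uninduced A3 ratios lay above 0.9, the upper limit of the study's own filter. The study regards genes past that limit as likely artifacts of wrongly annotated SNPs, although Dynlt3 is on the authors' list.

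Kdm6a, which encodes an H3K27 demethylase and escapes X inactivation in many tissues (chrX:18162666-18279358, plus strand, mm10), declined slowly. It had ratios of 0.532 and 0.538 in uninduced cells, 0.476 and 0.483 at day 2, 0.419 and 0.409 at day 3, 0.252 and 0.302 at day 5, and 0.225 and 0.247 at day 7. The late libraries lay below the early ones (0.256 ± 0.032 against 0.447 ± 0.038, SD, n = 4 each, limma adjusted p = 0.000178). Other genes from a list of known escapees followed, all lower late than early without overlap: Eif2s3x, a translation initiation factor gene, from 0.322 and 0.301 at day 2 to 0.172 and 0.250 at day 7, Ddx3x, an RNA helicase gene, from 0.339 and 0.356 to 0.138 and 0.226, and Utp14a, a ribosome biogenesis gene, from 0.455 and 0.462 to 0.211 and 0.205. Of the 6 listed escapees that could be measured, the median half-time was 3.63 days and 5 were still above 0.1 on average at days 5 and 7. Shroom4, a regulator of cytoskeletal shape, was the exception at 1.71 days, with ratios of 0.0236 and 0.0160 at day 7.

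Rpl10, a ribosomal protein gene, kept a high ratio through day 7, although each day 7 library lay below each day 2 library. Its ratio was 0.415 and 0.434 at day 2, 0.393 and 0.339 at day 3, 0.361 and 0.386 at day 5, and 0.304 and 0.346 at day 7, with overlap between periods (limma adjusted p = 0.090, and 0.049 without replicate 2 of day 3). Nono, an RNA-binding protein of paraspeckles, was flat from day 2 on, at 0.340 and 0.325 at day 2 and 0.342 and 0.249 at day 7 (limma adjusted p = 0.264). Suv39h1, an H3K9 methyltransferase gene, fell from 0.458 and 0.403 at day 2 and 0.345 and 0.292 at day 3 to 0.195 and 0.202 at day 5 and then stood at 0.195 and 0.205 at day 7 (limma adjusted p = 0.000334).

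A group of 7 genes from a list of loci known to depend on SmcHD1 was measured, a list drawn up with earlier results of these data known. Their median half-time was 3.96 days in A3 and 2.41 days in WT, and it was longer in A3 for 7 of 7 genes. Taf1, which encodes the largest TFIID subunit (chrX:101532734-101601789, plus strand, 1.86 Mb from Xist), had ratios of 0.336 and 0.349 in uninduced cells, 0.276 and 0.283 at day 2, 0.213 and 0.208 at day 3, 0.148 and 0.180 at day 5, and 0.138 and 0.205 at day 7. All late values were below all early ones (limma adjusted p = 0.0084), but replicate 2 of day 7 was about as high as the day 3 libraries. In WT, Taf1 had 0.294 and 0.302 at day 2 and only 0.0321 and 0.0326 at day 7.

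Igbp1, a regulator of PP2A-type phosphatases 2.94 Mb from Xist, followed the same course, with 0.346 and 0.330 at day 2, 0.275 and 0.246 at day 3, 0.219 and 0.220 at day 5, and 0.170 and 0.236 at day 7 (limma adjusted p = 0.00553) and no overlap between periods. Its half-time was 4.44 days in A3 and 2.41 days in WT, where day 7 stood at 0.0373 and 0.0360. Ogt, the O-GlcNAc transferase gene, stalled after day 3: it had 0.183 and 0.169 at day 3, 0.147 and 0.196 at day 5, and 0.141 and 0.243 at day 7 (limma adjusted p = 0.158, and 0.0209 without replicate 2 of day 7). The remaining members, Yipf6, Pin4, Nkap and Vma21, had A3 half-times of 3.17, 7.32, 3.96 and 2.35 days and WT half-times of 2.00, 3.79, 2.97 and 1.65 days. With a free final ratio the A3 half-times were 2.60 days for Taf1, 1.70 days for Igbp1, 0.956 days for Ogt, 1.60 days for Yipf6, 1.37 days for Pin4, 2.47 days for Nkap and 1.90 days for Vma21, so the length of these half-times rested on a decay that ends at 0. In the same order, the longest A3 half-times over all fits tried were 6.89, 6.58, 10.3, 4.43, 14.7, 4.57 and 2.62 days.

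**Figure D2:**
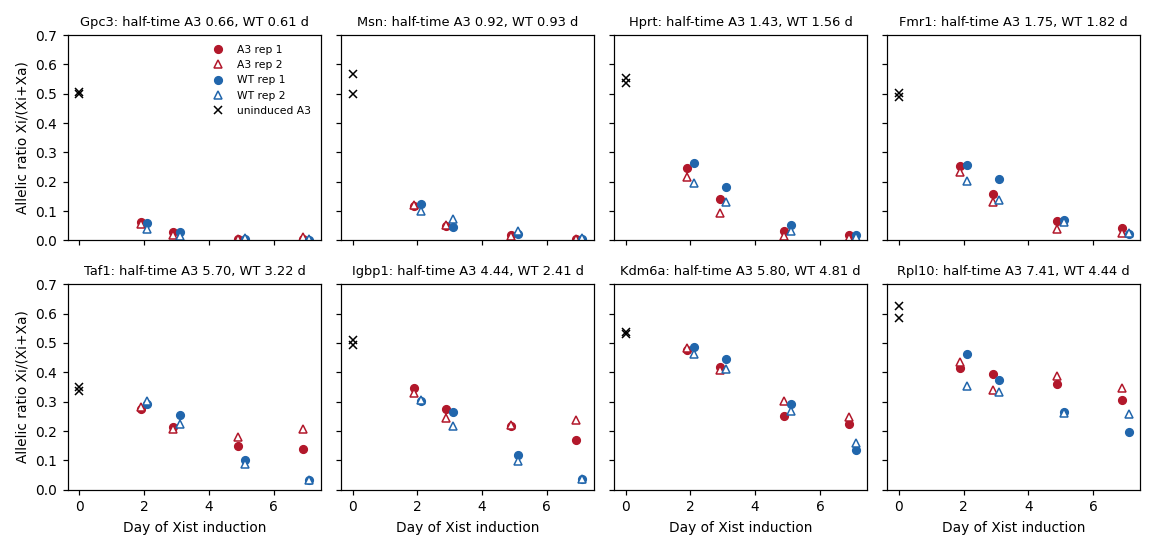
Allelic ratio Xi/(Xi+Xa) of 8 genes against the day of Xist induction, 1 point per library (crosses, uninduced A3; red, A3; blue, WT; circles and triangles, replicates 1 and 2). Gpc3, Msn and Hprt approach 0 in both genotypes, while Taf1 and Igbp1 stand at 0.138 and 0.205 and at 0.170 and 0.236 in A3 at day 7 against 0.0321 to 0.0373 in WT.

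Half-times differed between groups of genes defined without these ratios, given here as medians with no test. By a classification of the same genes in fibroblasts of another data set, the 67 genes not dependent on SmcHD1 had a median half-time of 1.20 days in A3, the 83 partially dependent genes 1.86 days, the 36 dependent genes 2.24 days and the 9 fibroblast escapees 3.48 days. The WT medians of the same classes were 1.18, 1.90, 1.90 and 2.64 days, and the half-time was longer in A3 for 34 of 67, 39 of 83, 26 of 36 and 6 of 9 genes. By days 5 and 7 the median ratio was 0.0832 in the dependent class in A3 against 0.0417 in WT, and 0.0162 in the independent class against 0.0193.

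Genes in active chromatin before induction (174 genes) had a median A3 half-time of 1.70 days, and those carrying H3K27me3 (38 genes) 1.15 days. By distance from Xist in steps of 20 Mb, the medians were 1.07 days (56 genes), 1.62 days (64 genes), 1.11 days (40 genes), 1.74 days (17 genes) and 1.91 days (69 genes), so the order was not monotonic. By level in uninduced cells per kilobase, from the lowest to the highest group of 82 genes, they were 1.35, 1.50 and 1.91 days. Across 245 genes the half-time had Spearman correlations of 0.306 with distance and 0.333 with the uninduced level, as descriptions over genes measured in the same libraries.

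**Figure D3:**
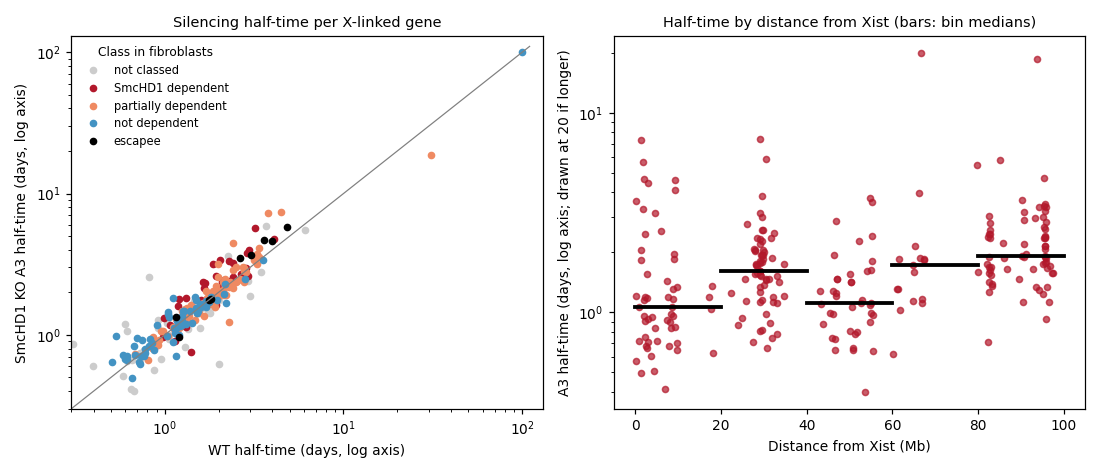
Left, A3 half-time against WT half-time per X-linked gene in days (both axes logarithmic, grey line for equality, colours for the fibroblast class); both fits use the uninduced A3 libraries as day 0. Right, A3 half-time (log axis, values above 20 days drawn at 20) against distance from Xist in Mb, with bars at the medians of 20 Mb bins, which are 1.07, 1.62, 1.11, 1.74 and 1.91 days.

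The promoters of a fast gene and of slow genes are shown so that their CpG content can be read beside the half-times. Each is the 250 bases upstream of the RefSeq start site in GRCm38.p6, 5′ to 3′ on the gene's strand, with every CG pair in capitals. Gpc3 (half-time 0.660 days, chrX:52613975-52614224, minus strand) holds 25 CG pairs, Kdm6a (5.80 days, chrX:18162325-18162574, plus strand) 15, and Taf1 (5.70 days, chrX:101532485-101532734, plus strand) 16.
Gpc3: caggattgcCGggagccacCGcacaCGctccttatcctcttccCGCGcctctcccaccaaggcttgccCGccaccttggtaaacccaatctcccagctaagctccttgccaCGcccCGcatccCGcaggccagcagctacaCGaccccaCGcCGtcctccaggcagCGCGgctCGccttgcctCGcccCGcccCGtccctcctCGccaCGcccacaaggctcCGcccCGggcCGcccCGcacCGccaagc
Kdm6a: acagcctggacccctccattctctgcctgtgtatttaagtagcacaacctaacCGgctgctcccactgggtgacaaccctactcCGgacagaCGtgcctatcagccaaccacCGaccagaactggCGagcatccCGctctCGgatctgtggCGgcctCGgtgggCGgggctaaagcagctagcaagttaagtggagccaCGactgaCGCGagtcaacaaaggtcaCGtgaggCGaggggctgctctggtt
Taf1: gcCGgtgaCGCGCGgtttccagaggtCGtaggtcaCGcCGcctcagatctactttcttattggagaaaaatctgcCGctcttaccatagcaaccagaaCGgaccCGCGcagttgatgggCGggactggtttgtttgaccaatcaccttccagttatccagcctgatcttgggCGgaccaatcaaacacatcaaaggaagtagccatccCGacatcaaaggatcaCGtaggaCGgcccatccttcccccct
Each of the 3 is rich in CpG. Over windows from 250 bases before to 50 bases after the start site, RefSeq promoters were matched for 196 of the 246 genes, and the median number of CG pairs was 15.5 in the fastest 82 genes by A3 half-time, 18.5 in the middle 82, 18 in the slowest 82 and 7 over 27025 promoters of all genes. The letters AAGATGGCG, the core bound by the zinc-finger protein YY1, or their reverse complement CGCCATCTT stood in 1 of 60 promoters of the fastest group (1.67%), 4 of 64 of the middle group (6.25%) and 6 of 72 of the slowest group (8.33%), against 1.64% of all promoters (443 of 27025). The 6 slow genes were Suv39h1, Uba1, Idh3g, Ssr4, Hcfc1 and Vbp1. These are matches of letters on either strand, not sites shown to be bound.

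Over the whole list, the median half-time was 1.57 days in A3 and 1.54 days in WT, and it was longer in A3 for 129 of 246 genes. The medians of the replicate courses were 1.63 and 1.48 days in A3 and 1.68 and 1.38 days in WT, with a difference of means of 0.0238 days (exact two-sided permutation test, p = 1, the smallest possible being 0.333). The spread between replicate courses of either genotype was larger than that difference.

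The libraries of the genotypes stood apart at day 7 in the signal that remained on the Xi. There the median ratio was 0.0335 and 0.0302 in A3 against 0.0164 and 0.0178 in WT, and summed Xi fragments were 380 and 405 RPM against 218 and 228 RPM. Genes above a ratio of 0.1 at day 7 numbered 44 and 46 in A3 and 21 and 18 in WT. At day 5 the libraries of the genotypes were interleaved, at 0.0571 and 0.0375 in A3 and 0.0503 and 0.0423 in WT. With 2 libraries each at day 7 no exact test of these values can pass the threshold. For the difference between A3 and WT in the step from day 5 to day 7, limma called 0 of the 246 genes (7 at an unadjusted p under 0.05). Within WT alone the same step also had 0 genes called (15 at an unadjusted p under 0.05, median change -0.0246), although the WT median ratio fell. The lack of calls therefore does not show that the steps of the genotypes were alike.

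Tested over both periods, the change in ratio differed between A3 and WT for 3 of 246 genes (1.22%), Taf1, Foxo4 and Taz, all falling less in A3, with 29 genes at an unadjusted p under 0.05. The change of Taf1 was less negative in A3 by 0.127 ± 0.025 (SE, limma adjusted p = 0.037), that of Taz, which encodes the cardiolipin-remodelling enzyme tafazzin, by 0.130 ± 0.027 (limma adjusted p = 0.040), and that of Foxo4, a forkhead transcription factor gene, by 0.129 ± 0.025 (limma adjusted p = 0.037). Foxo4 had as few as 25 allelic fragments in a library, and its change in A3 itself did not pass (0.0479 ± 0.0277 and 0.0363 ± 0.0266, SD, n = 4 each, limma adjusted p = 0.504), where it was already 0.0882 and 0.0385 at day 2 against 0.286 and 0.217 in WT. None of these calls was stable: over the 16 fits that each left out 1 library, the call of Taf1 was lost in 12, with adjusted p between 0.0613 and 0.138, and so was that of Foxo4, while that of Taz was lost in 13. The difference of Taf1 lay between 0.110 and 0.144 in all 16.

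Counts of X-linked genes not split by allele changed in both directions. Among the 246 genes, total counts rose in 30 and fell in 46 between the periods in A3 (30.9%, against 31.4% of all 15516 genes tested, edgeR's quasi-likelihood test with Benjamini-Hochberg adjustment at 0.05), with a median log2 fold change of -0.08 against 0.03 over autosomal genes. On the Xa alone, 47 genes rose and 30 fell (31.3%, against 27.9% of all genes on Cast fragments, median 0.14). On the Xi, 199 of the 246 genes passed the filter on low counts, of which 157 fell and 1 rose (against 27.7% of all genes called on Dom fragments), and the summed Xi values above cover the whole list. Utp14a fell on both alleles, from 203 and 229 RPM at day 2 and 148 and 136 RPM at day 3 to 88.9 and 107 RPM at day 5 and 69.7 and 72.3 RPM at day 7 in total counts (log2 fold change -0.96, adjusted p = 0.00173).

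In total counts the periods differed widely. Of 15516 genes tested in A3, 4877 (31.4%) passed the threshold, 2580 higher (16.6%) and 2297 lower (14.8%) at days 5 and 7 by edgeR's quasi-likelihood test, whose Benjamini-Hochberg adjusted p-values are given for single genes below. Scaled by library totals in place of TMM, 1976 were higher and 2859 lower, and the median over all genes moved from 0.02 to -0.09. By step, 0 genes passed at day 3 against day 2 (960 at an unadjusted p under 0.05), 403 at day 5 against day 3 (252 higher and 151 lower, 2.60%) and 2 at day 7 against day 5, both lower. The gene lists below were drawn up with earlier results of these data known, and their counts are set against the 16.6% and 14.8% of all genes. In bulk RNA, fewer cells of a type and less RNA per cell cannot be told apart.

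Naive pluripotency genes were below their mESC level in sum at days 2 and 3, and a minority of them fell further. Summed over the 16 list members, they stood at 2171 to 2258 RPM in uninduced cells, 302 to 842 RPM at days 2 and 3 and 202 to 350 RPM at days 5 and 7. Of 16 tested, 6 fell and 0 rose, among them Nr0b1, Dppa3 and Tcl1, with a median log2 fold change of -0.45 over the list (-0.28 without replicate 2 of day 7). The other 10 did not pass, among them Nanog (0.01 ± 0.37, adjusted p = 0.984) and Klf4 (0.11 ± 0.65, adjusted p = 0.912), and the summed ranges of the periods overlapped. Zfp42 (Rex1), a zinc-finger marker of naive cells, was at 223 and 149 RPM at day 2, 109 and 77.0 RPM at day 3, 34.5 and 21.6 RPM at day 5, and 29 and 18 RPM at day 7. Each late library was below each early one (log2 fold change -2.24 ± 0.24, SE, adjusted p = 0.00085). Fgf4, the differentiation-priming FGF ligand of mESCs, went from 68.5 and 40.5 RPM at day 2 and 39.3 and 28.6 RPM at day 3 to 6.25 and 3.73 RPM at day 5 and 5.84 and 1.16 RPM at day 7, again without overlap (-3.25 ± 0.46, adjusted p = 0.00227).

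Genes of the primed, epiblast-like state fell later. Of 17 tested members of the core and primed list, 10 fell and 1 rose, with a median of -1.10. Otx2, a transcription factor of the epiblast and later of the anterior neural plate, was above its uninduced level of 39.4 and 35.0 RPM at day 2 (74.5 and 58.6 RPM) and day 3 (60.9 and 55.9 RPM), and then dropped to 18.8 and 16 RPM at day 5 and 15.8 and 3.98 RPM at day 7 (-2.14 ± 0.35, adjusted p = 0.00409). The de novo DNA methyltransferase gene Dnmt3b did likewise, with 749 and 850 RPM at day 2, 707 and 770 RPM at day 3, 216 and 197 RPM at day 5, and 130 and 83.2 RPM at day 7 (-2.26 ± 0.17, adjusted p = 0.000361). In both genes every late library was below every early one. Pou5f1 (Oct4), the core pluripotency factor, was at 41.9 to 79.5 RPM early and 32.4, 51.6, 31 and 6.84 RPM late, and the periods overlapped (-1.11 ± 0.40, adjusted p = 0.070, 0.0177 without replicate 2 of day 7, 0.00044 without replicate 1 of day 7, 0.0490 with a replicate block, which fits a term for the replicate number, and 0.0103 by DESeq2). Sox2 was listed at 0 in every library, where the overlapping Sox2ot shares its strand.

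The 2-cell-like programme, transcripts of a rare state that resembles the early embryo, had nearly gone by day 5. The sum over its list went from 35.4 and 37.5 RPM in uninduced cells through 8.22 to 13.2 RPM at days 2 and 3 to 0.412 to 0.974 RPM at days 5 and 7. All 9 tested members fell. With so little late signal, members passed the filter on low counts mainly through the early libraries. That filter favours falls among the genes tested, so the count of 9 adds little to the sums. Zscan4f had 3.13 and 2.72 RPM at day 2, 1.83 and 1.89 RPM at day 3, 0.235 and 0.211 RPM at day 5, and 0.0749 and 0.128 RPM at day 7, with no overlap (-3.78 ± 0.31, adjusted p = 0.000438). The Zscan4 genes are near-identical copies, so their counts are uncertain one by one.

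Genes of DNA methylation and demethylation fell with the stem cell state, 5 of 12 lower (Dnmt3l, Dnmt3b, Tet1, Dnmt3a and Uhrf1) and 2 higher (Mbd2 and Tet3). Dnmt3l, the catalytically inactive partner of the de novo enzymes, had 76.5 and 64.2 RPM at day 2, 29.8 and 26.2 RPM at day 3, 9.21 and 4.64 RPM at day 5, and 3.41 and 0.899 RPM at day 7 (-3.42 ± 0.39, adjusted p = 0.0011). Tet1, a 5-methylcytosine dioxygenase gene, had 1176 and 1033 RPM at day 2 and 294 and 138 RPM at day 7 (-1.81 ± 0.26, adjusted p = 0.00252). No late library of either gene reached the early range.

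Neural precursor genes rose in part. Of 14 tested members, 6 rose (among them Cdh2, Zbtb16, Vim and Nes), 1 fell (Pax6) and 7 did not pass, with a median of 0.82. Without replicate 2 of day 7 the counts were 5 and 1. Nes, the intermediate filament nestin, rose early and peaked at day 5, with 20.7 and 19.5 RPM at day 2, 60.8 and 64.2 RPM at day 3, 139 and 164 RPM at day 5, and 85.4 and 48.5 RPM at day 7. The last value lay below both day 3 libraries, so the periods overlapped (1.61 ± 0.16, adjusted p = 0.000732). Vim, the intermediate filament vimentin, was at 13.2 to 25 RPM early and 44.9, 74.1, 65.7 and 57.9 RPM late, without overlap (1.69 ± 0.19, adjusted p = 0.00101).

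Pax6, a transcription factor of dorsal telencephalic and retinal precursors, went the other way. It had 10.2 and 6.68 RPM in uninduced cells, 3.17 and 2.65 RPM at day 2, 2.63 and 2.35 RPM at day 3, 0.638 and 0.387 RPM at day 5, and 0.711 and 0.899 RPM at day 7. All late libraries were below the early ones (-1.93 ± 0.29, adjusted p = 0.00269), and WT fell too (-1.45, adjusted p = 0.00876). Sox11, a neural progenitor SoxC factor, had 45.5 to 79.4 RPM early and 45.5 to 115 RPM late (0.36 ± 0.21, adjusted p = 0.222, and 0.0391 with a replicate block). Sox1, the usual early neuroectoderm marker, was listed at 0 in every library, where Gm5607 overlaps it on the same strand, and so says nothing here.

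Neuronal genes changed in part, most of those called being lower. Of 14 tested proneural and neuronal genes, 6 fell (among them Slc17a6, Insm1, Neurod1, Elavl3 and Ina) and 1 (Gad1) rose, with a median of -0.77, and Neurog1 and Neurog2, which drive neurogenesis, were too low to test. Ina, the neuronal filament internexin, had 13.1 and 12.8 RPM at day 2, 14.6 and 15.9 RPM at day 3, 8.40 and 7.03 RPM at day 5, and 2.96 and 2.18 RPM at day 7 (-1.54 ± 0.18, adjusted p = 0.00115). Elavl3, a neuronal RNA-binding protein gene, fell from 7.48 and 6.16 RPM at day 2 and 11.1 and 11.2 RPM at day 3 to 4.91 and 2.57 RPM at day 5 and 1.83 and 0.867 RPM at day 7 (-1.84 ± 0.31, adjusted p = 0.00427). In both genes the late libraries lay below the early ones. Other neuronal genes were well expressed throughout and did not pass: Map2, a microtubule-associated protein gene, had 132 to 196 RPM early and 143, 147, 108 and 55.5 RPM late (-0.50 ± 0.19, adjusted p = 0.0776), and Stmn2, a stathmin gene, had 80.1 to 89 RPM early and 118, 109, 74.4 and 33.7 RPM late (-0.03 ± 0.21, adjusted p = 0.938). Of 6 tested glial genes 1 rose, and Gfap, Aqp4 and Olig2 were too low to test. The label describes these cells as between mESCs and NPCs, and the markers of NPCs were thus raised in part, while the neurogenic and glial genes just named were near 0.

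Mesendoderm and primitive streak genes rose in part. T (Brachyury), the T-box factor of the streak and nascent mesoderm (chr17:8434422-8442496), had the largest rise of any gene that met the rule for large changes, a mean of at least 10 RPM and no overlap between periods. It had 4.39 and 3.00 RPM in uninduced cells, 0.391 and 0.318 RPM at day 2, 1.56 and 1.67 RPM at day 3, 71.7 and 245 RPM at day 5, and 143 and 78.3 RPM at day 7. The groups were far apart (log2 fold change 7.54 ± 0.48, SE, adjusted p = 0.000241, and 7.68 without replicate 2 of day 7). WT rose as well, by 6.53, from 0.436 to 1.41 RPM early, with 6.89 RPM the lowest and 133 RPM the highest late value.

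Of 12 tested mesendoderm genes 7 rose and 0 fell (among them T, Gsc, Mixl1, Kdr, Tbx6 and Foxa2, median 1.98), with the same counts without replicate 2 of day 7. Mixl1, a homeobox gene of the streak, reached 0.806, 8.16, 1.39 and 1.06 RPM at days 5 and 7 from at most 0.249 RPM before. Gata6, Sox17 and Gata4, markers of endoderm, did not pass, but 10 of the 12 genes, these 3 included, passed as higher with a replicate block. Summed over the list, the range was 17.6 to 63.5 RPM at days 2 and 3 and 154 to 304 RPM at days 5 and 7.

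WNT genes moved together with them. Of 15 tested WNT pathway genes 11 rose and 0 fell, with a median of 2.41 (10 and 0 without replicate 2 of day 7, median 1.38). Wnt3, a ligand of the posterior epiblast, had 3.13 and 4.21 RPM at day 2, 9.54 and 12.7 RPM at day 3, 57.3 and 105 RPM at day 5, and 42.7 and 31.2 RPM at day 7 (3.19 ± 0.24, adjusted p = 0.000361). Axin2, a negative-feedback target of the pathway, had 13.1 to 17.7 RPM early and 50.5, 100, 46.6 and 108 RPM late (2.41 ± 0.32, adjusted p = 0.00182). Neither gene's periods overlapped. Further WNT ligands rose: Wnt6 was at 0.640 to 0.802 RPM early and 17.5, 47.5, 17.9 and 19.4 RPM late (5.21 ± 0.35, adjusted p = 0.000292), and Wnt8a at 1.20 to 2.42 RPM early and 6.25, 21.8, 8.24 and 14.8 RPM late (3.05 ± 0.43, adjusted p = 0.00224). Rspo3, a secreted amplifier of WNT signalling, went from 3.43 to 11.3 RPM early to 19.3, 139, 116 and 589 RPM late (4.83 ± 0.75, adjusted p = 0.00334), where replicate 2 of day 7 was the highest and the estimate without it was 3.96 (adjusted p = 0.00084).

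Among genes of FGF and BMP signalling, some rose as well. Fgf8, an FGF ligand of the streak and the caudal progenitor zone, had 0.248 to 0.401 RPM early and 4.54, 22.1, 10.1 and 11.8 RPM late (5.23 ± 0.54, adjusted p = 0.00076). The FGF list as a whole stayed near the background, 4 of 16 higher and 2 lower with a median of 0.10 (5 and 4 without replicate 2 of day 7, median -0.11). Etv5, an ETS effector of FGF and ERK signalling, fell from 163 to 251 RPM early to 136, 129, 80.8 and 111 RPM late (-0.77 ± 0.15, adjusted p = 0.00833). Of 15 BMP and SMAD genes 8 rose and 0 fell (median 1.32, and 7 and 0 without replicate 2 of day 7, median 0.76), including the secreted inhibitors Nog and Chrd, but not the inhibitor Grem1 (-0.73, adjusted p = 0.297), and Bmp7, a ligand, at 7.00 to 16 RPM early and 25, 43.5, 37.9 and 39.1 RPM late (1.75 ± 0.21, adjusted p = 0.00128). Id3, a direct BMP target, had 0.460 to 1.53 RPM early, 1.28 and 1.97 RPM at day 5 and 6.33 and 6.42 RPM at day 7, with overlap between periods (1.74 ± 0.30, adjusted p = 0.00469).

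In the Notch pathway 8 of 13 tested genes rose and 2 fell, with a median of 0.95. Notch2, a receptor, was at 140 to 181 RPM early and 263, 303, 278 and 283 RPM late (0.95 ± 0.11, adjusted p = 0.00108). Rbpj, the DNA-binding partner of the Notch intracellular domain, moved against it, from 842 and 870 RPM at day 2 and 646 and 514 RPM at day 3 to 332 and 264 RPM at day 5 and 266 and 280 RPM at day 7 (-1.19 ± 0.15, adjusted p = 0.00173). Both genes changed without overlap between periods.

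The retinoic acid enzyme Aldh1a2, which makes the ligand, had 0.818 to 1.52 RPM early and 7.93, 17.9, 29.1 and 184 RPM late. Replicate 2 of day 7 was far above the rest, and the rise stood with it (5.20 ± 0.66, adjusted p = 0.00158) and without it (4.20, adjusted p = 4.5e-05). Cyp26a1, which degrades retinoic acid, rose from 0.0708 to 0.142 RPM to 0.403, 1.51, 0.786 and 1.67 RPM (3.44 ± 0.58, adjusted p = 0.00457). Of 11 retinoic acid genes tested 4 rose and 0 fell (median 0.51), against 3 and 1 without replicate 2 of day 7 (median 0.29).

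Regional identity and Hox genes were where replicate 2 of day 7 mattered most. Pax3, a dorsal neural tube and neural crest factor, had 0.446 to 0.814 RPM early, 2.02 and 2.39 RPM at day 5, and 5.65 and 115 RPM at day 7. The rise was 4.34 ± 0.90 with that library (adjusted p = 0.00979) and 2.56 without it (adjusted p = 0.000405), and leaving out either day 2 library took the adjusted p to 0.0545 to 0.0596. Meis2, a TALE homeobox gene, had 16 to 28 RPM early and 39.9, 66.8, 63.8 and 766 RPM late (2.87 ± 0.68, adjusted p = 0.0164, and 1.45 without that library, adjusted p = 0.00202). Its call was lost without any 1 of replicates 1 and 2 of day 2, replicates 1 and 2 of day 3 and replicate 2 of day 5 (adjusted p = 0.0501 to 0.0845). Tshz2, a teashirt zinc-finger gene, had 0.920 to 1.74 RPM early, 5.14 and 6.05 RPM at day 5, and 4.83 and 144 RPM at day 7 (4.20 ± 0.92, adjusted p = 0.012, and 2.16 without that library, adjusted p = 0.000255), and its call was lost without any 1 of the early libraries (adjusted p = 0.0527 to 0.0706).

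Over the list of regional factors, 6 of 12 rose and 2 fell with that library and 3 of 13 rose and 2 fell without it, and the median fell from 1.58 to 0.45. Of 7 tested Hox genes 3 rose in either setting. Hoxd3, a paralogue group 3 gene of hindbrain and neck level, was at 0.101, 1.02 and 0.337 RPM in the other late libraries and at 121 RPM in replicate 2 of day 7 (adjusted p = 0.0629, 0.353 without it, 0.000312 without replicate 1 of day 7 and 0.00699 by DESeq2). Fragments of the neighbouring Hoxd4, listed at 0, may be counted with it, since the gene models overlap on 1 strand. Hoxa3 showed the same pattern, at 0.112 to 0.668 RPM against 39 RPM, and its estimate changed sign without that library (3.31, adjusted p = 0.110, and -0.46, adjusted p = 0.595, but 3.78 and 0.00021 without replicate 1 of day 7). In WT, replicate 1 of day 7 was likewise the high one, with 47.7 RPM of Pax3, 199 RPM of Meis2 and 13.5 RPM of Hoxd3, against 2.35, 35.4 and 0.199 RPM in its replicate.

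**Figure D4:**
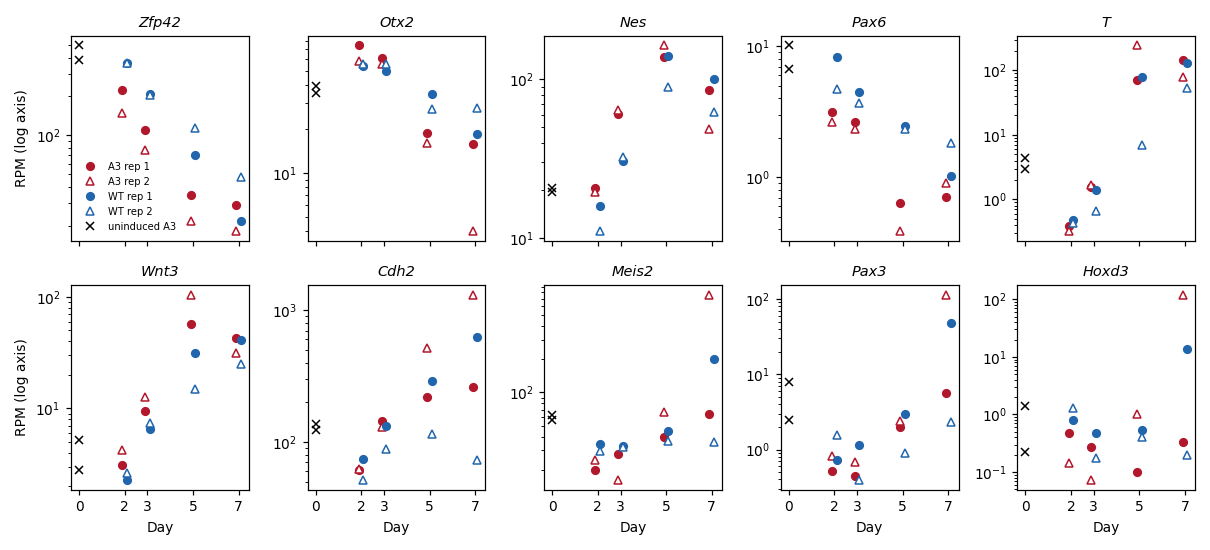
RPM (log axes) of 10 genes against the day, 1 point per library (crosses, uninduced A3; red, A3; blue, WT; circles and triangles, replicates 1 and 2). Zfp42, Otx2 and Pax6 fall, T, Wnt3 and Nes rise by day 5, and Cdh2, Meis2, Pax3 and Hoxd3 are highest in replicate 2 of day 7 in A3, at 1314, 766, 115 and 121 RPM.

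Cdh2 (N-cadherin), the adhesion molecule that replaces E-cadherin in both neural plate and mesoderm, also leaned on that library. It had 61.7 to 144 RPM early and 220, 515, 263 and 1314 RPM late, without overlap (2.67 ± 0.50, adjusted p = 0.00677, and 1.81 without that library, adjusted p = 0.000705). Pcdh7, a protocadherin gene, rose in all late libraries alike, from 10.8 and 14.7 RPM at day 2 and 48.3 and 51.3 RPM at day 3 to 578, 1103, 1115 and 969 RPM (5.31 ± 0.26, adjusted p = 9.63e-05).

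Genes of other cell types that such cultures can hold were low but not absent. Of 14 tested fibroblast genes, which would also mark residual feeders, 7 rose and 1 fell, with a median of 1.81. Without replicate 2 of day 7, 6 of 15 rose and 1 fell, with a median of 0.71. The summed level of the list was 95.3 and 116 RPM in uninduced cells, 51.5 to 85.8 RPM early and 111 to 277 RPM late. Col1a1, a fibrillar collagen gene, had 0.778 to 2.05 RPM early and 10.3, 7.67, 13.3 and 11.2 RPM late (3.08 ± 0.32, adjusted p = 0.000837). Postn and Lum were too low to test over all 8 libraries. Of 7 tested trophoblast genes 2 rose and 1 fell (3 and 1 without replicate 2 of day 7). Of 8 neural crest genes 3 rose and 1 fell with or without that library, and the median was 1.12 with it and 0.36 without it. Whether these cell types had a part in the rises above was not tested.

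**Figure D5:**
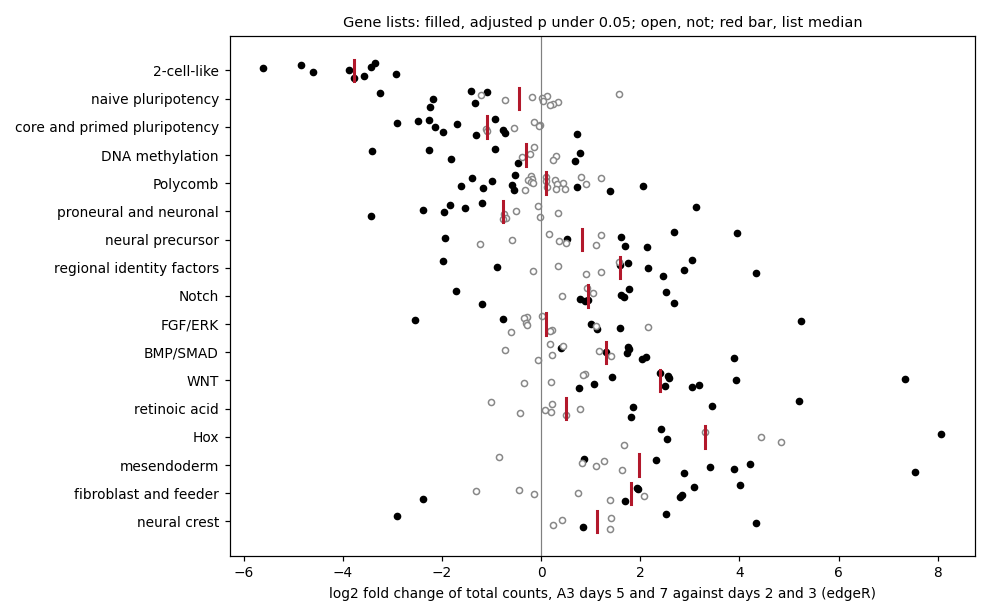
Log2 fold change of total counts between days 5 and 7 and days 2 and 3 in A3 (edgeR), 1 point per gene of each list, filled where the adjusted p is under 0.05 and open where it is not, with red bars at list medians. The tested 2-cell-like genes, which passed the filter on low counts mainly through the early libraries, all lie below 0. Of the WNT genes 11 of 15, and of the mesendoderm genes 7 of 12, are filled and above 0.

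Genes of the silencing machinery changed at about the rate of all genes. Of 24 genes for Xist cofactors and Xi chromatin, 3 rose, 4 fell and 17 did not pass, with a median of 0.12 (0.000814 without replicate 2 of day 7). Among the fallers were Jarid2, a subunit of PRC2, the complex that deposits H3K27me3, from 1372 to 2150 RPM early to 926, 829, 793 and 630 RPM late (-0.99 ± 0.16, adjusted p = 0.00364). H2afy, the gene of the Xi-enriched histone variant macroH2A1, rose from 45.4 to 69.8 RPM early to 79.7, 86.4, 99.2 and 143 RPM late (0.98 ± 0.18, adjusted p = 0.00574). Smchd1 itself did not pass (0.20 ± 0.14, adjusted p = 0.307), nor did Lrif1, the gene of its binding partner (0.42 ± 0.19, adjusted p = 0.124, and 0.0263 with a replicate block). Of 27 Polycomb genes 3 rose and 7 fell. Phc1 and Phc2, alternative subunits of canonical PRC1, moved apart: Phc1 fell from 230 to 372 RPM to 109, 111, 88.7 and 49.3 RPM (-1.61 ± 0.18, adjusted p = 0.000998), and Phc2 rose from 11.4 to 17.5 RPM to 40.3, 59.2, 48.8 and 78.4 RPM (2.06 ± 0.23, adjusted p = 0.000968). Cbx7, the main PRC1 chromodomain subunit of mESCs, fell from 106 to 152 RPM to 63.5, 42.8, 47.8 and 18.9 RPM (-1.40 ± 0.27, adjusted p = 0.00753).

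The remaining largest falls were of genes with roles outside these lists. Slfn9, a Schlafen family gene, had 28.8 and 32.6 RPM at day 2, 14.1 and 10.3 RPM at day 3, 1.44 and 1.51 RPM at day 5, and 0.973 and 0.321 RPM at day 7 (-4.21 ± 0.32, adjusted p = 0.000361). Far2 (a fatty acyl-CoA reductase gene), Aoah (acyloxyacyl hydrolase), Slc5a11 (a sodium-coupled inositol transporter), Sohlh2 and Sycp1 (of germ cells and meiosis), Nyap2 and 2410007B07Rik fell by 3.01 to 3.50 on the log2 scale, each without overlap between periods and with adjusted p from 0.000194 to 0.00098. Among the rises, Pappa, a metalloproteinase of IGF-binding proteins, Wdr72 and the noncoding B230323A14Rik had log2 fold changes of 4.40, 4.26 and 5.88 (adjusted p = 0.00199, 0.00257 and 0.000361). Pappa was highest in replicate 2 of day 7, and without that library its change was 3.47 (adjusted p = 7.7e-05).

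The change in total counts between periods did not differ between A3 and WT for any gene (edgeR, 0 of 15941 called, 741 at an unadjusted p under 0.05, and 14 by DESeq2). In WT 4158 of 15529 genes (26.8%) passed, 2222 higher and 1936 lower. For T the A3 rise exceeded that of WT by 0.98 ± 1.10 on the log2 scale (SE, adjusted p = 1), for Nes the difference was -0.67 ± 0.29 (adjusted p = 1), and for Dnmt3b -0.86 ± 0.19 (adjusted p = 0.67).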

How the data were processed

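ChrRNA-seq was carried out by the authors on A3 and WT cells. Per the study's methods and the submitters' processing notes, rRNA reads were removed with Bowtie2 2.3.2, the rest were mapped by STAR 2.4.2a (unique hits) to mm10 with strain variants masked, assigned to alleles with SNPsplit and counted per gene with strand-specific featureCounts 1.5.2 over whole transcripts, introns included. The deposited values are raw counts of fragments for 22556 genes (all, Cast and Dom), 908 of them X-linked, without pooling of replicates. Per the file headers, counting set no option for genes that overlap, and some genes that overlap another on their strand are listed at 0. The 246 X-linked genes are those of the authors' deposited ratio table for this line, all between 6.048 and 103.396 Mb on the X chromosome; its 26 columns of single samples carry names of the iXist-ChrX_Cast line, in which the Cast X bears inducible Xist, and were not used.

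From these counts, RPM and allelic ratios were computed. Ratios were tested with limma 3.58.1 and counts with edgeR 4.0.16 (quasi-likelihood test, TMM scaling, filterByExpr filter; DESeq2 1.42.0 as the alternative) in R 4.3.3, each with day as a factor over the 8 A3 libraries, or over 16 libraries for A3 against WT. Adjusted p-values are Benjamini-Hochberg over all genes tested, at 0.05. Half-times were fitted with minpack.lm 1.2.4 to an exponential decay, with a limit of 100 days. The tests were run on simulated data first. Exact permutation tests over libraries were two-sided. Depth limits genes with few allelic fragments, and ratios carry counting error beside the spread between libraries.

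The libraries were chosen by their labels, and the gene lists and their members with earlier results of these data known. Genes named were the 10 largest changes in each direction among called genes with a mean of at least 10 RPM and no overlap between periods, the first 4 members of each list with those above 5 RPM (few of which are printed), the 8 shortest and 8 longest half-times with at least 50 allelic fragments in every library, the X-linked lists, and genes whose change differed from WT. Lists of cell types and pathways hold textbook markers. The fibroblast classes and chromatin states come from the study's supplementary gene table, and no value was taken from it. Samples were grouped by title, day and clone as given by the labels. Some results on single genes are not reported here.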

Additional observations from a re-analysis of the deposited data

Results flagged for a closer look

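In 19 of 234 groups of 4 libraries examined (8.12%, where chance gives about 5%), 1 library lay far from the other 3 of its period, and in 10 of the 19 that library was replicate 2 of day 7. In that library Aldh1a2 was at 184 RPM (29.1 RPM in the nearest late library), Pappa at 124 RPM (24.8 RPM), Pax3 at 115 RPM (5.65 RPM), Tshz2 at 144 RPM (6.05 RPM), Meis1 at 281 RPM (55 RPM), Meis2 at 766 RPM (66.8 RPM), Hoxd3 at 121 RPM (1.02 RPM) and Hoxa3 at 39 RPM (0.668 RPM). The smooth muscle gene Tagln was low there, at 9.37 RPM against 17.1 RPM in the nearest library, and the allelic ratio of Las1l was 0.0345 against 0.0218.

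The other single libraries that stood apart were fewer. Among late libraries, replicate 2 of day 5 had 47.5 RPM of Wnt6 (19.4 RPM in the nearest), 8.16 RPM of Mixl1 (1.39 RPM) and an allelic ratio of 0.0129 for Pcyt1b (0.00769), replicate 1 of day 5 had 0.235 RPM of Zscan4c (0.0963 RPM), and replicate 1 of day 7 had 32.7 RPM of the Notch target Hes1 (9.28 RPM) and a ratio of 0.02 for Smarca1, which was at 0 in the other late libraries. Among early libraries, replicate 1 of day 2 had 152 RPM of Cbx7 (113 RPM) and 7.26 RPM of Smad6 (5.24 RPM), and replicate 2 of day 2 had 74.8 RPM of Sycp1 (35.9 RPM).

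The change in allelic ratio differed between A3 and WT, by limma's test of the difference itself, for Taz (0.130 less negative in A3), Foxo4 (0.129) and Taf1 (0.127). Each of these calls was lost in most fits that left out 1 library. Foxo4 was not called as falling in A3 itself, where its ratio was already lower than in WT at day 2.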

How the results depend on the processing

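The fall in allelic ratio kept its direction in every setting tried: 217 genes were called, 196 to 212 with 1 library left out and 176 to 219 otherwise. The median ratio changed by -0.142 to -0.104 with 1 library left out (exact permutation p up to 0.0571, reached without any 1 late library) and by -0.121 with a replicate block (exact permutation p = 0.0556). Xist changed by 0.67 to 0.95 (exact permutation p up to 0.0857, without replicate 1 of day 7) and by 0.80 with the block (exact permutation p = 0.0556), and with 1 library left out the p was under 0.05 only when that library was of day 3. A free final ratio for all genes gave a median half-time of 1.36 days, and for the named genes 59 half-times under other fits moved beyond the spread between replicates and 196 did not. The half-time difference between A3 and WT, 0.0238 days, turned to -0.0138 without day 0, -0.0992 with a free final ratio, and ranged from -0.128 to 0.175 with a replicate course left out (-0.0526 without A3 replicate 1); the cause was not tested. Genes called in total counts ranged from 2458 to 6497 with 1 library left out (2458 and 2478 without replicates 1 and 2 of day 3, 3089 and 3036 without those of day 5) and from 4462 to 5613 otherwise. Genes called on the Xi ranged from 128 to 170 and on the Xa from 37 to 98 (46 without replicate 2 of day 2, 37 and 40 without replicates 1 and 2 of day 3, and 49 without either replicate of day 5). The difference of ratio changes from WT was called for 17 genes on the log2 scale and for 0 to 9 with 1 library left out, and that of total counts for 14 genes by DESeq2, 42 without A3 day 7 replicate 1, 1 without WT day 7 replicate 1 and 0 without any other library. The change of Foxo4 in A3 ranged from -0.024 to 0.000838 (0.000159 without replicate 2 of day 7), and that of Hoxa3 from -0.46 to 3.78. In the main tests of ratios and counts the replicate numbers were not treated as pairs, since the labels do not tie them to a course. Not every correlation between deviations of same-numbered libraries was over 0.1 (0.0553 to 0.366 in log2 CPM and -0.0382 to 0.293 in allelic ratio). The half-times per replicate course did join libraries by that number, with the same-numbered uninduced A3 library as day 0, and rest on that grouping. A replicate block gave 5613 genes in total counts, 210 in ratio, 165 on the Xi, 89 on the Xa, and 2 (without Taz) and 0 that differed from WT. For single genes, 1060 of the total-count alternatives kept side and direction, 71 lost the call, 19 gained it and 1 changed sign. Depth limits ratios near 0, where a few fragments set the value.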
